A study of Mus musculus with 6 samples.

Results

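The 43 genes described here encode the DNA replication machinery and the enzymes that supply its deoxynucleotides. They were chosen by name with earlier results of these data known, so shares of all genes set beside them are description only. The gene table, searched by symbol, held 43 of the 43 among 37576 genes. Each of the 43 passed the filter on low counts that left 16511 genes for testing. RNA came from dissociated whole livers of C57BL/6 embryos at embryonic day 12.5, so every value is an average over the cell types of the organ. Livers 6, 16 and 19, each from a male, had the genotype Adar1E861A/E861A and make up the E861A group, in which a single residue of the RNA-editing enzyme ADAR1 is changed throughout the embryo and the protein no longer edits. The wild-type group held liver 2, a male, and livers 15 and 17, both female. Sex was therefore tied in part to genotype. The labels name no litter or culture behind a liver, so p-values for gene levels measure the spread between these 6 libraries alone.

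In each cell cycle the origin recognition complex, Cdc6 and Cdt1 load the MCM helicase on DNA before S phase, and Cdc45 and the GINS complex then switch it on. Polymerase alpha with its primase starts each strand, and polymerases epsilon and delta extend it together with the sliding clamp PCNA. Flap endonuclease and DNA ligase join the lagging-strand pieces. Ribonucleotide reductase, thymidylate synthase and thymidine kinase make the building blocks, and many of these genes are switched on before S phase by E2F transcription factors. The fetal liver at this age is the main site of red cell production, and its erythroid precursors divide rapidly.

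Counted reads per library ranged from 35280460 to 43733715. Adar averaged 317.7 ± 37.5 CPM (counts per 1000000 reads of TMM-scaled library size) in E861A and 64.3 ± 12.7 CPM in wild type (SD, n = 3 each). Since the mutation changes a codon and leaves the transcript in place, that level does not check the genotype labels. Marker lists of red cell precursors, hepatoblasts, macrophages, endothelial, mesenchymal and progenitor cells were detected in all 6 libraries, with no marker at 0 in any library. E861A 6 and wild type 2 stood apart from the other libraries of their genotype over the 43 genes. The median log2 difference to the mean of the other 2 libraries was 0.30 for E861A 6 and -0.33 for wild type 2, so each of these libraries lay toward the opposite genotype. It was -0.10 and -0.23 for E861A 16 and 19, and 0.21 and 0.13 for wild type 15 and 17. For each gene the 3 differences of a genotype sum to 0, so these medians are tied.

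Fitted levels of nearly all replication genes were lower in E861A livers. Of the 43, 8 fell and 0 rose by edgeR's quasi-likelihood test at a Benjamini-Hochberg adjusted p under 0.05 over all genes tested, where 4.26% of genes fell and 7.77% rose. The 8 were Rrm2 and Rrm1, the subunits of ribonucleotide reductase, Mcm4 and Mcm2 of the replicative helicase, Pola1, the catalytic subunit of polymerase alpha, Cdc6, a helicase loader, Lig1, DNA ligase I, and Rfc1, the large subunit of the clamp loader. The fitted log2 fold change was below 0 in 41 of the 43, with a median of -0.43, whereas 7717 of the 16511 genes tested were below 0 and their median was 0.04. An unadjusted p under 0.05 was reached by 23 of the 43, all lower in E861A, a direction and threshold that 12.2% of all genes tested met, and no member rose with DESeq2 or limma-voom either. Each E861A library lay below each wild-type library for 22 of the 43, against 14.5% of all genes tested. The reverse order, seen in 19.4% of all genes tested, held for a single member, Orc4.

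Summed over the 43, the level was 6496, 5471 and 5094 CPM in E861A 6, 16 and 19, against 7200, 9706 and 9307 CPM in wild type 2, 15 and 17. The groups did not overlap, and the highest E861A library and the lowest wild-type library were the pair that stood apart. The ratio of the means was 0.651. In whole-organ RNA, fewer cells that carry these transcripts and less of them per cell cannot be told apart.

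**Figure D1:**
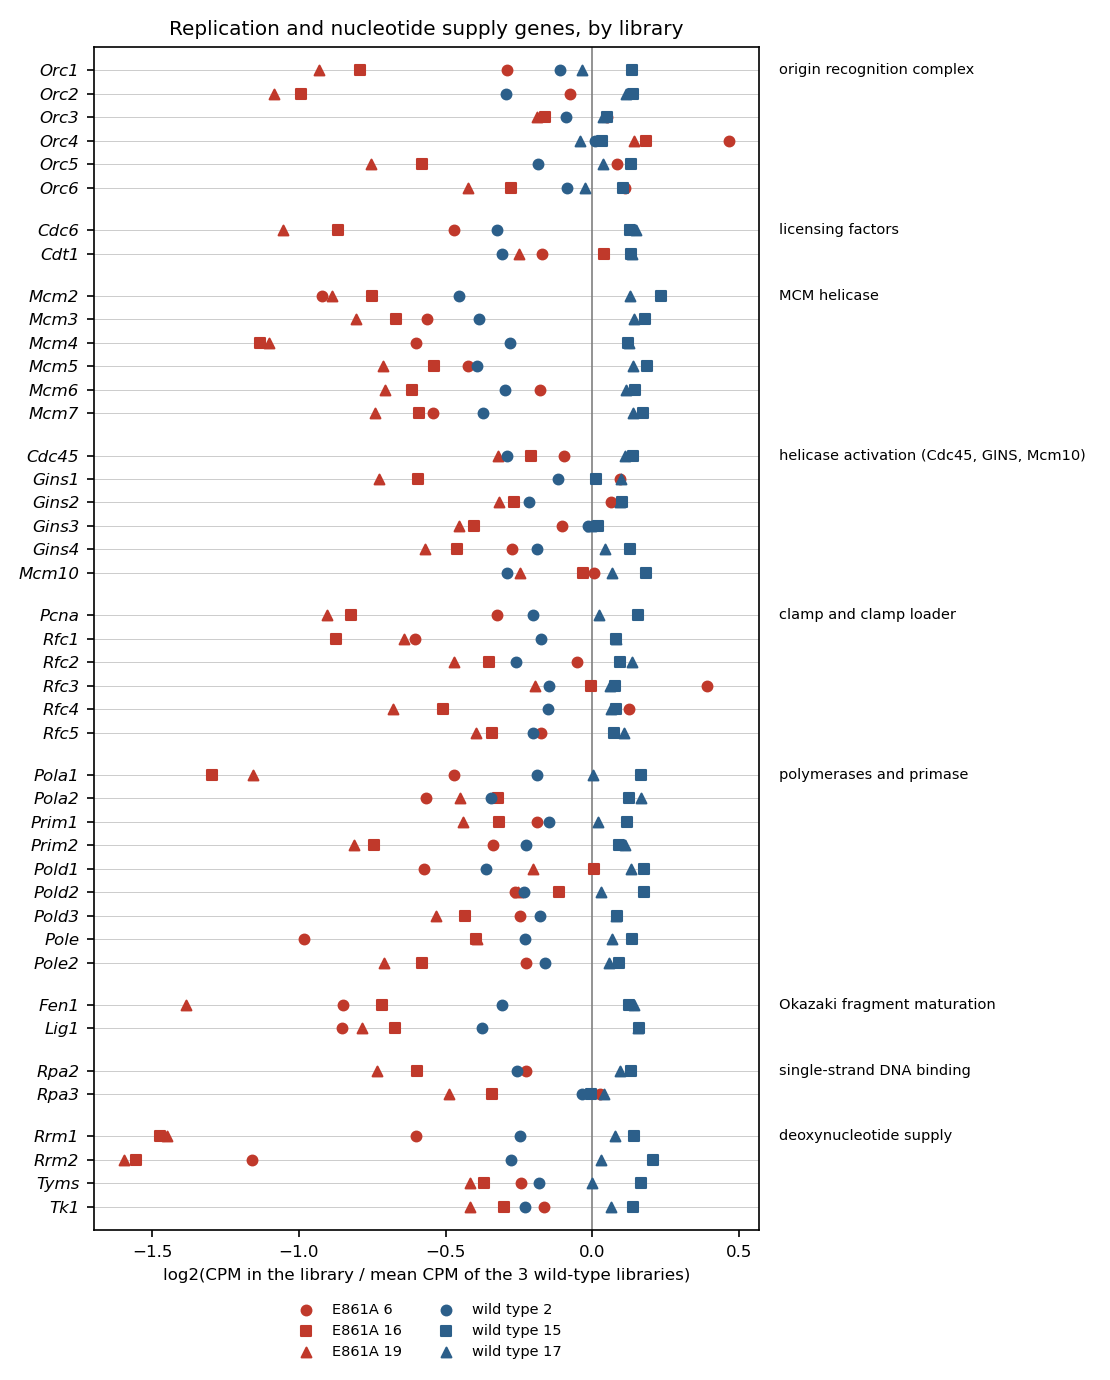
Level of each of the 43 genes in each library, as log2 of the CPM over the mean CPM of the 3 wild-type libraries, grouped by role; each point is a library. E861A points lie left of all wild-type points for 22 genes and right of them for Orc4, and the E861A circle (liver 6) and the wild-type circle (liver 2) often lie nearest to each other.

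The count of falling genes differed when a library was left out or sex was added to the fit. Leaving out wild type 2 gave 17 falling members and a median of -0.53, with 1502 of 16761 genes falling in all, and leaving out E861A 6 gave 13 members and a median of -0.59, with 502 genes falling in all. The fit with all 6 libraries had 703 such genes. Without E861A 19 only Rrm2 and Rfc1 passed, with 512 genes falling in all. Without E861A 16, wild type 15 or wild type 17 only Rrm2 passed, with 150, 197 and 95 genes falling in all. With sex as a covariate 1 member fell, Rrm2 (0.236% of all genes tested), and the median was -0.22. Among male libraries alone edgeR called 0 falling members, 2 had an unadjusted p under 0.05 and were lower, as 2.91% of all genes tested did, and the median was -0.21. There 0.0447% of genes fell in all, and the comparison had 1 wild-type library. Both of these fits take the genotype difference from wild type 2, so that sex and that liver cannot be told apart. In the authors' deposited table, which covers 14484 genes and the same libraries, 9 of the 43 passed its adjusted p of 0.05 in the lower direction (4.84% of its genes did), 0 in the higher direction, and 41 had a fold change below 0. These 9 were the 8 above and Fen1.

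**Figure D2:**
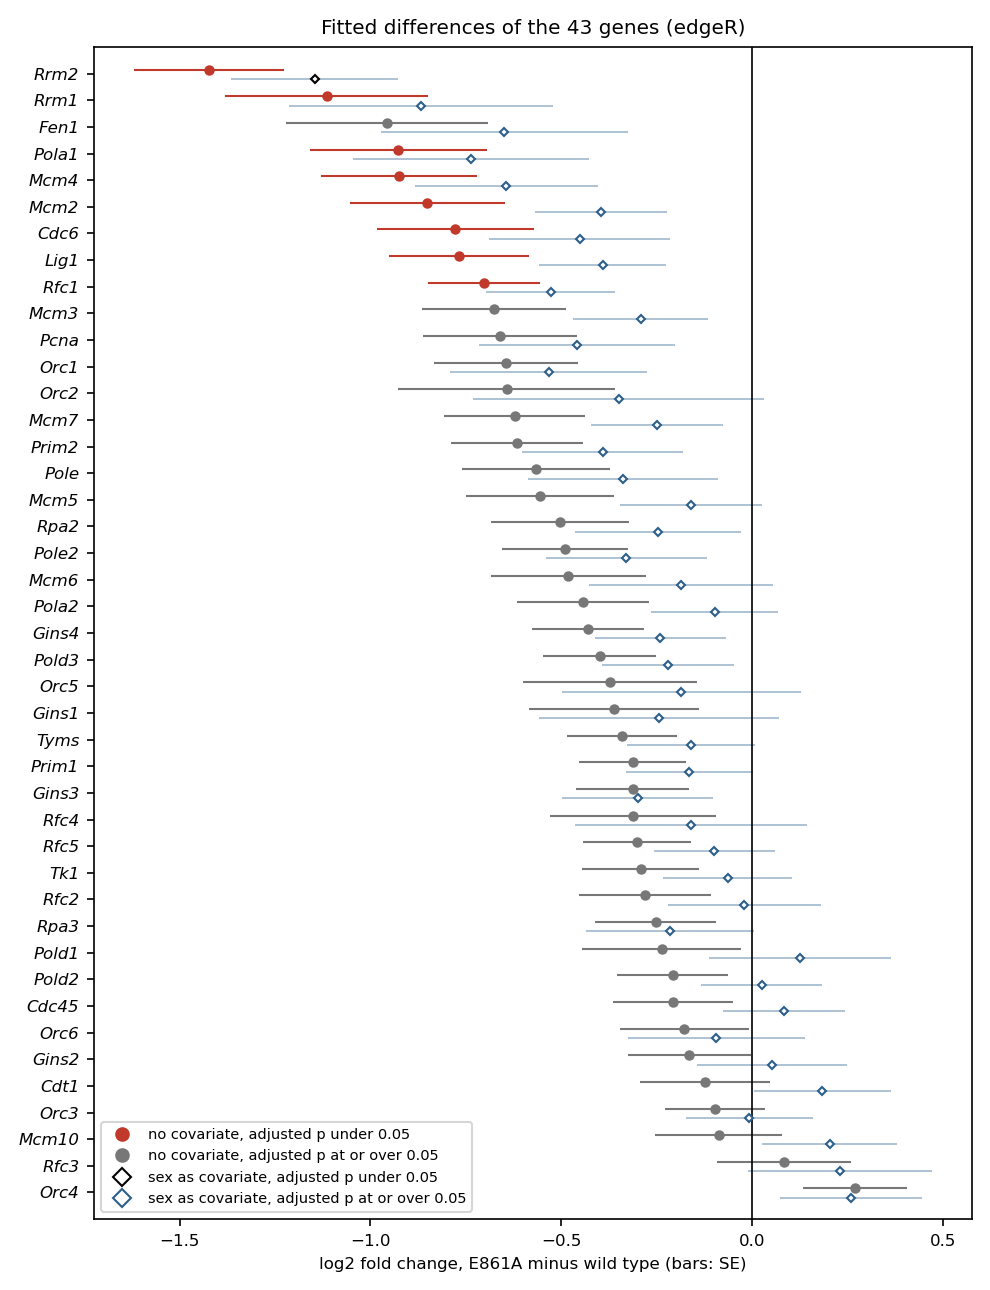
Fitted log2 fold change of each of the 43 genes, E861A minus wild type, with bars of 1 SE, from the fit without a covariate (filled circles, red where the adjusted p was under 0.05) and with sex as a covariate (open diamonds). In the fit without a covariate 41 circles lie left of 0, and with sex as a covariate most estimates move toward 0 and Rrm2 alone passes.

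The promoters of these genes carry letters that the member list did not use. RefSeq promoters (GRCm38.p6, 250 bases before to 50 after a start) were matched by symbol for 36 of the 43 genes (44 promoters) and searched on both strands, with overlapping matches allowed. An E2F-type motif (TTTCCCGC, TTTGGCGC, TTTCGCGC or TTTGCCGC) stood in 15 of the 36 (41.7%), against 2.6% of 27025 genes with a promoter and 4.38% of 10907 such genes that were tested here. The CCAAT box stood in 22 of 36 (61.1%), against 41.1% and 42.3% of the same sets, and the GC box GGGCGG in 75.0%, against 38.2% and 65.5%. The letters TTTGAA of the cell cycle homology region stood in 13.9%, against 20.2% and 14.4%. By role the E2F letters stood in 4 of 5 MCM promoters, both licensing factors, 4 of 7 polymerase promoters and 2 of 6 promoters of the origin recognition complex. They stood in 1 of 3 promoters of helicase activation, 1 of 5 of the clamp and clamp loader, 1 of 2 of Okazaki fragment maturation, 0 of 2 of single-strand binding and 0 of 4 of deoxynucleotide supply.

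The windows below (GRCm38.p6, on the gene's strand, before the start) show where an E2F-type match lies in members of 4 roles, of which Cdc6 and Pola1 fell. Capitals mark the matched letters, and in Mcm5 they are a pair of matches on opposite strands that share bases.
Cdc6, chr11:98907982-98908051, plus strand: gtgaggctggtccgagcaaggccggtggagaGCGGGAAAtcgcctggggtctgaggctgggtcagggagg
Mcm5, chr8:75109329-75109398, plus strand: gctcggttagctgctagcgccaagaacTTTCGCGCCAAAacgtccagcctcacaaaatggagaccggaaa
Mcm6, chr1:128359714-128359783, minus strand: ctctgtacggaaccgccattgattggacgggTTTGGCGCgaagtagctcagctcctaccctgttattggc
Orc1, chr4:108579384-108579453, plus strand: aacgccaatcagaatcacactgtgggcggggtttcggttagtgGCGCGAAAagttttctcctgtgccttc
Pola1, chrX:93632255-93632324, minus strand: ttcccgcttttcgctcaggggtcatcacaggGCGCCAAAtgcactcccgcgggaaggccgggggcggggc

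The members that fell most, Rrm2 and Rrm1, had no exact match to the E2F-type letters above in their RefSeq promoter, and variants of those letters were not searched. Both did hold a CCAAT box, as did Mcm2, Rfc1 and Pola1, whereas Cdc6 and Lig1, which also fell, held none. The capitals below mark the box or its reverse complement in all of these holders but Pola1.
Rrm2, chr12:24708171-24708240, plus strand: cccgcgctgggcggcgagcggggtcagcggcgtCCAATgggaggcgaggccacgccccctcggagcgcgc
Rrm1, chr7:102441617-102441686, plus strand: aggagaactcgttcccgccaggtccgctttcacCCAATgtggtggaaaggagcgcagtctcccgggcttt
Mcm2, chr6:88898919-88898988, minus strand: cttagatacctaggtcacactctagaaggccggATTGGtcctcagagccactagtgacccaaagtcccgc
Rfc1, chr5:65335769-65335838, minus strand: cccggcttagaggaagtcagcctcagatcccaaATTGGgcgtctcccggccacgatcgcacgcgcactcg
The 15 members with E2F-type letters had a median log2 fold change of -0.49 and 3 of them fell, and the 21 without had a median of -0.34 and 4 fell. With the CCAAT box the median was -0.53 over 22 members, of which 5 fell, and without it -0.36 over 14, of which 2 fell. For the GC box the order was the reverse, with a median of -0.37 over 27 members that hold it and -0.56 over 9 that do not. With TTTGAA it was -0.31 over 5 members and without it -0.44 over 31. These are descriptions of letters, not of binding.

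Deoxynucleotide supply held the lowest summed level relative to wild type of the 9 role groups. Its 4 genes summed to 1015, 709 and 695 CPM in E861A 6, 16 and 19, against 1388, 1857 and 1711 CPM in wild type 2, 15 and 17, a ratio of means of 0.488. Rrm2, the small subunit that limits ribonucleotide reductase in S phase (chromosome 12, 25393106 to 25399011 in NCBIM37), had 287.6, 218.8 and 212.7 CPM in E861A 6, 16 and 19, against 530.5, 741.9 and 655.8 CPM in wild type 2, 15 and 17. The highest E861A liver lay well below the lowest wild-type liver. Rrm2 fell by 1.42 on the log2 scale (SE 0.20, edgeR adjusted p = 0.00372), which is 2.68-fold lower. It passed in 6 of 6 fits that left out 1 library (adjusted p 0.00288 to 0.0305) and with sex as a covariate (-1.15, SE 0.22, adjusted p = 0.0424), but not among male libraries alone (-1.14, adjusted p = 0.111).

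Rrm1, the large subunit with the catalytic site (chromosome 7, 109590209 to 109618285), had 471.7, 257.3 and 261.9 CPM in E861A 6, 16 and 19, against 602.4, 788.3 and 754.9 CPM in wild type 2, 15 and 17. E861A 6 stood well above the other mutant livers, and the groups did not overlap. It fell by 1.11 (SE 0.26, adjusted p = 0.0327), with an adjusted p of 0.129 without E861A 16 and 0.0109 without E861A 6. Tyms, which makes thymidylate, had lower values in each E861A liver (119.7 ± 7.58 CPM in E861A and 151.6 ± 18.1 CPM in wild type, SD, n = 3 each) and did not pass (-0.34, SE 0.15, adjusted p = 0.173). Tk1, thymidine kinase of the salvage route, had 127.1, 115.5 and 106.6 CPM in E861A 6, 16 and 19, against 121.7, 156.8 and 149.1 CPM in wild type 2, 15 and 17. The groups overlapped through wild type 2, and the difference was -0.29 (SE 0.15, adjusted p = 0.267).

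**Figure D3:**
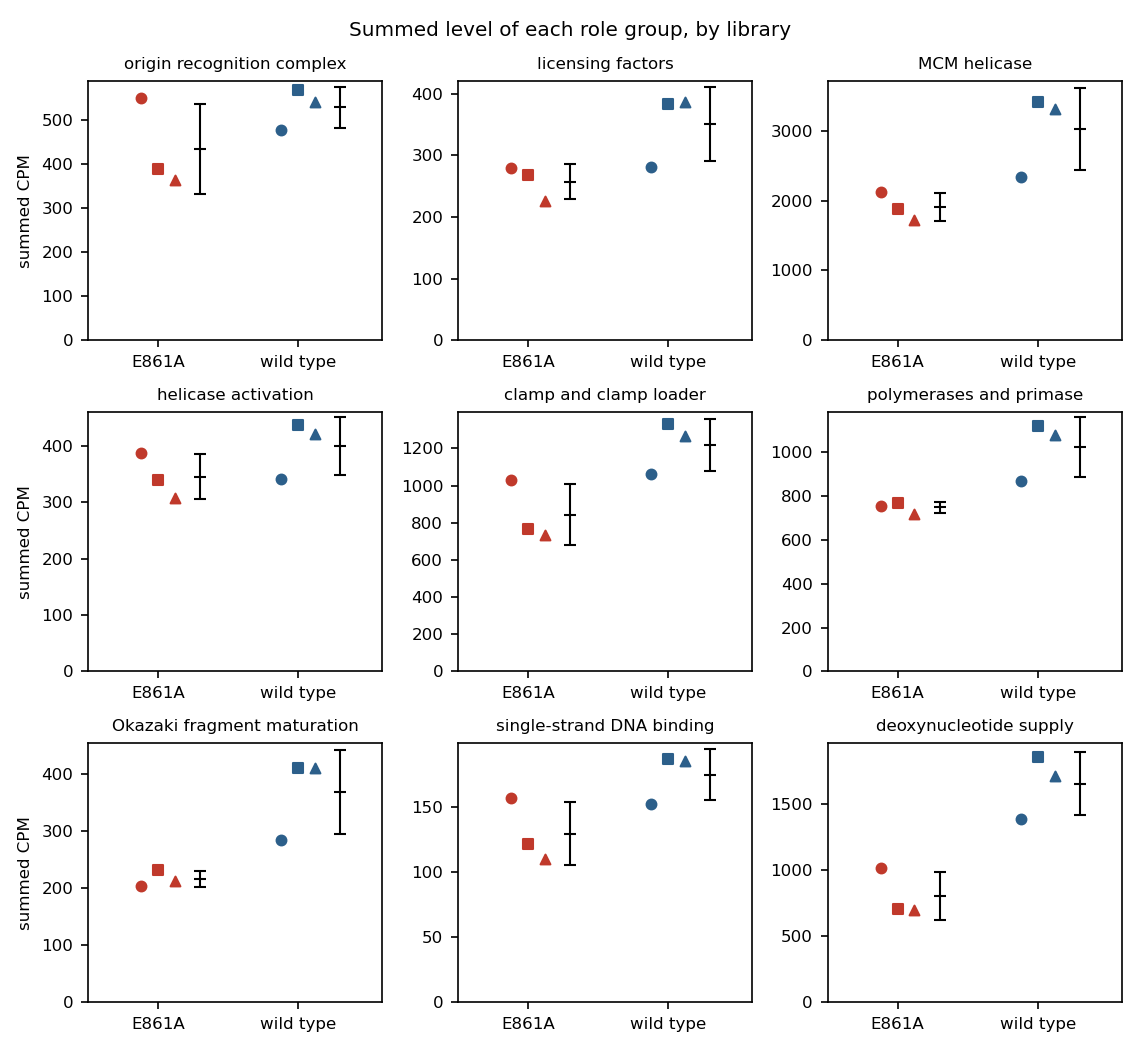
Summed CPM of the members of each role group in each library (circles, squares and triangles are livers 6, 16 and 19 for E861A and 2, 15 and 17 for wild type), with the mean and SD of each genotype as bars. The groups do not overlap for the MCM helicase, licensing factors, clamp and clamp loader, polymerases and primase, Okazaki fragment maturation and deoxynucleotide supply, and overlap for the other 3 roles.

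The MCM helicase, the hexameric motor of the fork, had 2 of 6 subunits that fell, and all 6 estimates were below 0. Summed, it stood at 2116, 1876 and 1725 CPM in E861A 6, 16 and 19, against 2343, 3409 and 3304 CPM in wild type 2, 15 and 17, a ratio of means of 0.631. Mcm4 (chromosome 16, 15623990 to 15637493) had 254.6, 176.2 and 179.95 CPM in E861A 6, 16 and 19, against 318.2, 419.97 and 421.5 CPM in wild type 2, 15 and 17. Mcm2 (chromosome 6, 88833469 to 88848774) had 290.4, 326.9 and 297.6 CPM in E861A 6, 16 and 19, against 401.3, 646.9 and 601.6 CPM in wild type 2, 15 and 17. For both subunits the groups were apart, and wild type 2 was the wild-type liver closest to the mutants. Mcm4 fell by 0.93 (SE 0.20, adjusted p = 0.0251) and Mcm2 by 0.85 (SE 0.20, adjusted p = 0.0332). Without wild type 17 the adjusted p was 0.124 for Mcm4 and 0.158 for Mcm2, and without wild type 2 it was 0.0139 and 0.00533.

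Mcm6 had the largest p of the subunits, with 516.9, 382.0 and 358.3 CPM in E861A 6, 16 and 19, against 476.3, 646.5 and 633.0 CPM in wild type 2, 15 and 17. E861A 6 exceeded wild type 2, so the groups overlapped, and the difference was -0.48 (SE 0.20, adjusted p = 0.169). Mcm3 (-0.68, adjusted p = 0.0566), Mcm7 (-0.62, adjusted p = 0.0685) and Mcm5 (-0.56, adjusted p = 0.107) did not pass, although each E861A liver lay below each wild-type liver. All 3 passed without wild type 2 (adjusted p 0.013 to 0.0248). Ratios between partner subunits were also read, per kb of exon, for 9 pairs chosen after their values were seen, and are given without a test. Mcm4 over Mcm6 was 0.599, 0.561 and 0.611 in E861A 6, 16 and 19, against 0.813, 0.790 and 0.810 in wild type 2, 15 and 17. That ratio varied little within a genotype, including in the livers that stood apart. Mcm2 over Mcm5 was 0.755, 0.921 and 0.946 in the same E861A livers, against 1.02, 1.10 and 1.06 in wild type. The genotypes were also apart, and lower in E861A, for Rrm2 over Rrm1, Rfc1 over Rfc2, Prim2 over Prim1 and Rpa2 over Rpa3. They overlapped for the other 3 pairs. Pola1 over Pola2 averaged 0.238 ± 0.097 in E861A and 0.330 ± 0.036 in wild type, Pold1 over Pold2 0.711 ± 0.108 and 0.725 ± 0.058 in E861A and wild type, and Orc2 over Orc3 1.52 ± 0.478 and 2.25 ± 0.251 in E861A and wild type (SD, n = 3 each).

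Of the licensing factors, which load the helicase, Cdc6 fell and Cdt1 did not pass. Cdc6 (chromosome 11, 98769115 to 98785254) had 138.7, 105.4 and 92.6 CPM in E861A 6, 16 and 19, against 153.6, 210.03 and 213.3 CPM in wild type 2, 15 and 17. All mutant livers were lower, by a small margin between E861A 6 and wild type 2. Cdc6 fell by 0.78 (SE 0.21, adjusted p = 0.0471), and the adjusted p was 0.201 without wild type 17 and 0.0207 without wild type 2. Cdt1, its partner in loading, had 140.3, 162.4 and 132.9 CPM in E861A 6, 16 and 19, against 127.8, 173.1 and 173.6 CPM in wild type 2, 15 and 17. These values overlapped, with wild type 2 the lowest of the 6, and the difference of -0.12 (SE 0.17, adjusted p = 0.713) turned to 0.18 with sex as a covariate. The difference between the changes of Cdc6 and Cdt1 was not tested.

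None of the 6 subunits of the origin recognition complex, which marks origins, fell or rose, and 5 of 6 estimates were below 0. Orc1, the subunit that joins the complex in a cell cycle-dependent way, had 33.4, 23.6 and 21.4 CPM in E861A 6, 16 and 19, against 37.8, 44.9 and 39.9 CPM in wild type 2, 15 and 17. Orc2, a core subunit, had 131.8, 69.8 and 65.5 CPM in E861A 6, 16 and 19, against 113.4, 153.1 and 150.6 CPM in wild type 2, 15 and 17. Orc3, its core partner, had 100.5, 86.7 and 85.1 CPM in E861A 6, 16 and 19, against 91.2, 100.5 and 99.4 CPM in wild type 2, 15 and 17. Orc1 did not overlap between the groups, whereas E861A 6 lay among the wild-type livers for Orc2 and Orc3. The differences were -0.65 (SE 0.19, adjusted p = 0.0659) for Orc1, -0.64 (SE 0.28, adjusted p = 0.194) for Orc2 and -0.10 (SE 0.13, adjusted p = 0.707) for Orc3. Without E861A 6, Orc1, Orc2 and Orc5 passed (adjusted p 0.0212, 0.0266 and 0.0492). Orc5 (-0.37) and Orc6 (-0.18) overlapped between genotypes. Orc4, singled out after its values were seen, had 66.4, 54.5 and 53.0 CPM in E861A 6, 16 and 19, against 48.4, 49.1 and 46.7 CPM in wild type 2, 15 and 17, an estimate of 0.27 (SE 0.14, adjusted p = 0.250) that was above 0 under all 16 alternatives.

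The factors that switch the helicase on had no member that passed and the ratio of summed levels nearest to 1, 0.862. Gins4 had 51.3, 45.1 and 41.9 CPM in E861A 6, 16 and 19, against 54.4, 67.9 and 64.0 CPM in wild type 2, 15 and 17. Gins3 had 22.9, 18.6 and 17.96 CPM in the same E861A livers, against 24.4, 24.9 and 24.5 CPM in the same wild-type livers. Mcm10, a factor that helps activate the loaded helicase, had 136.0, 132.7 and 114.3 CPM in E861A 6, 16 and 19, against 110.8, 154.1 and 141.9 CPM in wild type 2, 15 and 17. Gins4 and Gins3 were lower in each mutant liver than in any wild-type liver, with wild-type Gins3 values within 1 CPM of each other, while Mcm10 overlapped through wild type 2. The estimates were -0.43 (SE 0.15, adjusted p = 0.101, or 0.0479 without wild type 2) for Gins4, -0.31 (SE 0.15, adjusted p = 0.214) for Gins3 and -0.09 (SE 0.17, adjusted p = 0.802) for Mcm10. Gins1 (-0.36), Gins2 (-0.16) and Cdc45 (-0.21), the remaining parts of the active helicase, overlapped between genotypes, and Gins1 passed only without E861A 6 (adjusted p = 0.0355).

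At the sliding clamp, Rfc1 fell and the 4 small loader subunits did not pass. Rfc1 (chromosome 5, 65653091 to 65726909) had 102.3, 84.8 and 99.5 CPM in E861A 6, 16 and 19, against 137.6, 164.2 and 164.3 CPM in wild type 2, 15 and 17. It fell by 0.70 (SE 0.15, adjusted p = 0.0210), with the livers of each genotype close together, and the adjusted p was highest without wild type 17 (0.127). Pcna, the clamp itself, had 577.5, 408.9 and 386.0 CPM in E861A 6, 16 and 19, against 628.6, 805.04 and 734.98 CPM in wild type 2, 15 and 17. The groups did not overlap, E861A 6 and wild type 2 lay closest, and the estimate of -0.66 (SE 0.20, adjusted p = 0.0737) passed without E861A 6 (0.0362) or wild type 2 (0.0489). Rfc3 had 69.7, 53.1 and 46.4 CPM in E861A 6, 16 and 19, against 48.0, 56.1 and 55.5 CPM in wild type 2, 15 and 17. E861A 6 was the highest and E861A 19 the lowest of the 6, and the estimate was 0.08 (SE 0.18, adjusted p = 0.823). Rfc2, Rfc4 and Rfc5 lay at -0.28, -0.31 and -0.30 and overlapped. Rfc1 over Rfc2, per kb of exon, was 0.214, 0.218 and 0.278 in E861A 6, 16 and 19, against 0.333, 0.310 and 0.302 in wild type 2, 15 and 17.

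Among the polymerases and primase, 1 of 9 genes fell and 9 of 9 estimates were below 0. Pola1, the catalytic subunit of polymerase alpha (chromosome X, 90550106 to 90877494), had 98.7, 55.7 and 61.4 CPM in E861A 6, 16 and 19, against 119.9, 153.5 and 137.04 CPM in wild type 2, 15 and 17. Prim2, the large primase subunit, had 61.4, 46.4 and 44.3 CPM in the same E861A livers, against 66.5, 82.7 and 83.9 CPM in the same wild-type livers. Pold1, the catalytic subunit of polymerase delta, had 100.8, 150.6 and 130.1 CPM in E861A 6, 16 and 19, against 116.6, 169.1 and 164.0 CPM in wild type 2, 15 and 17. The groups were apart for Pola1 and Prim2, where E861A 6 was the highest mutant, and overlapped for Pold1, where it was the lowest of the 6. Pola1 fell by 0.93 (SE 0.23, adjusted p = 0.0393) and had an adjusted p of 0.133 without E861A 16 and 0.0118 without E861A 6. Pola1 is X-linked and the female livers were all wild type. Its estimate among male libraries alone was -0.73, and the part of X-linkage in its difference was not tested. Prim2 (-0.62, SE 0.17, adjusted p = 0.0584) passed without E861A 6 (0.0354) or wild type 2 (0.0311), and Pold1 stood at -0.24 (SE 0.21, adjusted p = 0.530).

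The other polymerase genes gave values of the same sign. Pole, the catalytic subunit of polymerase epsilon, had 82.9 ± 17.96 CPM in E861A and 122.7 ± 15.9 CPM in wild type (SD, n = 3 each; -0.57, adjusted p = 0.104), and its partner Pole2 had 37.2 ± 6.65 and 52.3 ± 4.87 CPM in E861A and wild type (-0.49, adjusted p = 0.0963). Pold3 (-0.40), Pold2 (-0.21), Prim1 (-0.31) and Pola2 (-0.44) did not pass. Each E861A liver lay below each wild-type liver for Pole, Pole2, Pold3 and Prim1 but not for Pold2 and Pola2. Pole and Pola2 passed without wild type 2 (adjusted p = 0.0469 and 0.0283), and Pole2 without E861A 6 (0.0425).

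Okazaki fragment maturation had the second lowest ratio of summed levels, 0.586. Lig1, which seals the fragments (chromosome 7, 13862632 to 13896782), had 200.3, 227.0 and 210.1 CPM in E861A 6, 16 and 19, against 278.5, 403.4 and 403.1 CPM in wild type 2, 15 and 17. The mutant livers were close together and all below wild type 2. Lig1 fell by 0.77 (SE 0.18, adjusted p = 0.0333), with adjusted p = 0.175 without wild type 17 and 0.00681 without wild type 2. Fen1, the flap endonuclease, had 4.09, 4.49 and 2.82 CPM in E861A 6, 16 and 19, against 5.96, 8.03 and 8.13 CPM in wild type 2, 15 and 17. Its groups did not overlap and its estimate was -0.96 (SE 0.26, adjusted p = 0.0545, or 0.0327 without wild type 2), yet the level rests on 129 to 308 reads a library. Of its exon bases 84.2% are shared with annotated genes on the opposite strand, which leaves 383 unshared bases, and whether the reads were counted by strand is not given in the sources used here. Reads on the unshared bases were not counted apart. If all Fen1 reads came from them, the level per kb would be 9.92 CPM in E861A and 19.2 CPM in wild type.

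The single-strand DNA binding protein RPA had no member that passed. Rpa2, the middle subunit, had 111.5, 86.3 and 78.6 CPM in E861A 6, 16 and 19, against 109.2, 142.9 and 139.4 CPM in wild type 2, 15 and 17. Rpa3, the smallest subunit, had 45.3, 35.1 and 31.7 CPM in E861A 6, 16 and 19, against 43.4, 44.3 and 45.7 CPM in wild type 2, 15 and 17. In both cases E861A 6 overlapped wild type and the other mutant livers were lower. The estimates were -0.50 (SE 0.18, adjusted p = 0.118) for Rpa2 and -0.25 (SE 0.16, adjusted p = 0.364) for Rpa3. The large subunit gene Rpa1, from the list of fork factors below, did fall (134.1 ± 9.62 CPM in E861A and 263.6 ± 53.1 CPM in wild type, SD, n = 3 each; -0.97, SE 0.18, adjusted p = 0.0143), with an adjusted p of 0.0811 in the least favourable fit that left out a library.

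Per kb of exon the members spanned a wide range of levels. Pcna was the highest, at 190.6 ± 43.6 CPM per kb in E861A and 301.2 ± 37.0 CPM per kb in wild type (SD, n = 3 each). In wild type Rrm2 came next at 231.9 ± 38.4, followed by Rrm1 at 178.9 ± 24.8 and Mcm2 at 163.2 ± 38.8 CPM per kb, and Rrm1 and Mcm2 did not differ beyond their spread. In E861A Rrm2 stood at 86.5 ± 15.02 CPM per kb, below Mcm5 at 104.3 ± 10.4, Mcm6 at 96.0 ± 19.6 and Mcm3 at 95.7 ± 8.05, again within their spread. The lowest in wild type, besides Fen1, were Orc4, Orc1, Gins3, Gins2 and Pole, all under 13 CPM per kb in both genotypes. In E861A Pola1 also lay in that range, at 8.16 CPM per kb, against 15.5 CPM per kb in wild type. Counting can blur some of these levels. Copies elsewhere in the genome of at least 97% identity over 100 bases cover 82.8% of the Pcna transcript, 80.2% of that of Mcm7 and 18.8% of that of Rrm2, and 67.3% of the exon bases of Gins2 are shared with Gse1 on the opposite strand. How reads with several matches were counted is not given in the sources used here.

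Departures of single libraries were also set against exon GC content over the 43 genes. The difference to the mean of the other 2 libraries of a genotype had a Spearman correlation with GC of -0.65, 0.70 and 0.44 for E861A 6, 16 and 19, and of -0.67, 0.41 and 0.64 for wild type 2, 15 and 17. The 3 differences of a genotype sum to 0, so their correlations are tied and do not single out a library. Over the 16511 genes tested they were -0.32, 0.29 and 0.13 in the E861A libraries and -0.08, 0.02 and 0.13 in the wild-type libraries. These describe genes within single libraries, and genes are not independent replicates. The 12 members under 45% GC had a median departure of 0.51 in E861A 6, and the 13 at or over 52% GC had 0.12. Orc2 (0.96) and Rrm1 (0.86) lay highest there, and Pole (-0.58) and Pold1 (-0.47) lowest. The log2 fold change itself had a correlation of 0.04 with GC over the 43. With offsets for exon GC and length, chosen after the data were seen, 13 members fell (6.41% of all genes tested) and the median was -0.51.

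**Figure D4:**
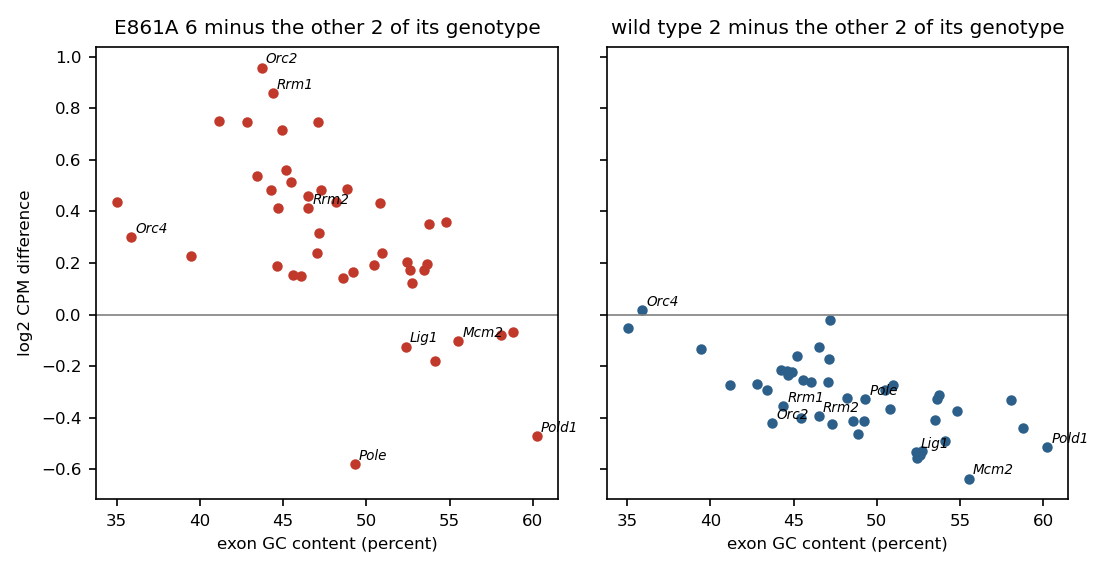
Departure of E861A 6 (left) and wild type 2 (right) from the mean of the other 2 libraries of its genotype, in log2 CPM, against exon GC content in percent, with a point for each of the 43 genes. E861A 6 runs from 0.96 for Orc2 at low GC to -0.58 for Pole, and in wild type 2 all genes but Orc4 lie below 0, with Mcm2 the lowest.

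Genes around this machinery were read from lists that hold no member. Of 20 tested genes for fork protection, accessory subunits and topoisomerases 9 fell and 0 rose (median -0.61). Clspn, the checkpoint mediator claspin, had 80.4 ± 5.03 CPM in E861A and 159.6 ± 21.4 CPM in wild type (-0.99, SE 0.15, adjusted p = 0.00573), and Dna2, a nuclease-helicase, 75.5 ± 3.44 and 144.5 ± 28.3 CPM in E861A and wild type (-0.94, SE 0.17, adjusted p = 0.0131). Of 10 genes of replication-coupled chromatin assembly 4 fell and 0 rose (median -0.59), among them Uhrf1, which guides maintenance DNA methylation (-0.91, SE 0.19, adjusted p = 0.0205), the FACT subunit Supt16h (-0.79, SE 0.17, adjusted p = 0.0245) and the histone chaperone Asf1b (-0.83, SE 0.19, adjusted p = 0.0306). Of 13 origin firing kinases and regulators 2 fell and 0 rose (median -0.34), the cyclins Ccna2 (-1.10, SE 0.23, adjusted p = 0.0193) and Ccne1 (-0.91, SE 0.20, adjusted p = 0.0232), and Topbp1 did not pass (-0.58, adjusted p = 0.0591). Clspn alone of the genes in this paragraph passed in every fit that left out a library (highest adjusted p = 0.0442).

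Upstream regulators were read from 2 more lists. Of 18 genes of the E2F, RB and DREAM system 10 fell and 0 rose (median -0.67). The atypical repressors E2f8 (63.3 ± 6.01 CPM in E861A and 154.2 ± 26.0 CPM in wild type; -1.28, SE 0.17, adjusted p = 0.00287) and E2f7 (18.98 ± 2.70 and 35.2 ± 2.95 CPM in E861A and wild type; -0.89, SE 0.15, adjusted p = 0.0103) led with Mybl2, the B-Myb subunit (-0.99, SE 0.18, adjusted p = 0.0111). E2f8 passed with sex as a covariate as well (-1.02, adjusted p = 0.0305). Of 6 tested inhibitors of cyclin-dependent kinases 2 rose and 1 fell. Cdkn1a, the p21 inhibitor that halts cells before S phase, had 83.8 ± 14.1 CPM in E861A and 7.36 ± 1.97 CPM in wild type (3.51, SE 0.24, adjusted p = 8e-05). Cdkn2b, the p15 inhibitor, also rose, with 1.001 ± 0.21 CPM in E861A, against 0.184 ± 0.028 CPM in wild type (2.42, SE 0.37, adjusted p = 0.00618). Its values of 0.184, 0.156 and 0.212 CPM in wild type 2, 15 and 17 rest on few reads, near the floor. Cdkn2c, the p18 inhibitor, fell (9.24 ± 1.95 CPM in E861A and 29.2 ± 5.65 CPM in wild type; -1.66, SE 0.21, adjusted p = 0.00268). Cdkn1a and Cdkn2c passed with sex as a covariate (adjusted p = 0.00553 and 0.0352), and Cdkn2b did not (adjusted p = 0.078). Mybl2 and Cdkn2b missed the threshold in at least 1 fit without a library (highest adjusted p 0.0656 and 0.0552), which E2f7, E2f8, Cdkn1a and Cdkn2c did not.

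Other nucleotide and polymerase genes moved in both directions. Of 27 genes of nucleotide synthesis and salvage 2 fell and 1 rose (median -0.33). Samhd1, which breaks down deoxynucleotides and is an interferon-stimulated gene, rose (314.9 ± 43.1 CPM in E861A and 92.0 ± 8.87 CPM in wild type; 1.77, SE 0.17, adjusted p = 0.000438), also with sex as a covariate (adjusted p = 0.00872). Dck, a salvage kinase, fell (74.6 ± 21.7 CPM in E861A and 177.6 ± 26.3 CPM in wild type; -1.25, SE 0.23, adjusted p = 0.0121), as did Cad, which starts pyrimidine synthesis (-0.95, SE 0.24, adjusted p = 0.0434). Of 12 repair and translesion polymerase genes 2 fell and 1 rose (median 0.00), with Polh at -1.14 (SE 0.20, adjusted p = 0.0110), Polq at -1.12 (SE 0.20, adjusted p = 0.0125) and Polk at 0.66 (SE 0.14, adjusted p = 0.0214). Dck, Cad, Polh, Polq and Polk each missed the threshold in at least 1 fit without a library (highest adjusted p 0.0621 to 0.172).

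Lists of cell and handling markers moved in both directions. Of 25 erythroid markers 12 fell and 0 rose (median -1.04), and their sum was 19824 to 21441 CPM in E861A and 26002 to 59682 CPM in wild type. Of 21 mitotic genes 8 fell and 0 rose (median -0.60), with sums of 4019 to 4304 CPM in E861A and 5857 to 9197 CPM in wild type. With sex as a covariate 0 of either list fell, and the medians were -0.50 and -0.38. Hepatoblast markers summed to 21014 to 30647 CPM in E861A and 16924 to 21255 CPM in wild type. Of these markers 7 of 15 rose, against 0 with sex as a covariate and 1 to 11 when a library was left out. Their median log2 fold change did not shrink with sex as a covariate (0.795 without it and 0.922 with it). Endothelial markers had 5 of 12 that rose and 1 that fell, and the number that rose was 1 with sex as a covariate and 0 without wild type 17. The endothelial median was 0.651, and 0.608 with sex as a covariate. The numbers that rose and fell were 3 and 1 of 12 macrophage markers, 2 and 0 of 12 progenitor markers, and 1 and 1 of 14 mesenchymal markers. Genes of the dissociation response, such as immediate-early and heat shock genes, summed to 720 to 1485 CPM in E861A and 195 to 445 CPM in wild type, and 7 of 14 rose, as many as with sex as a covariate, and 2 to 8 when a library was left out. Among wild-type livers, wild type 2 had the lowest sum of erythroid, mitotic, hepatoblast, macrophage, progenitor and dissociation genes. For endothelial genes wild type 17 was lowest (491 CPM, against 494 CPM in wild type 2). The sum of mesenchymal genes was highest in wild type 2 (2616 CPM, against 987 and 1806 CPM in wild type 15 and 17). The part of these cell and handling markers in the lower replication genes was not tested.

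**Figure D5:**
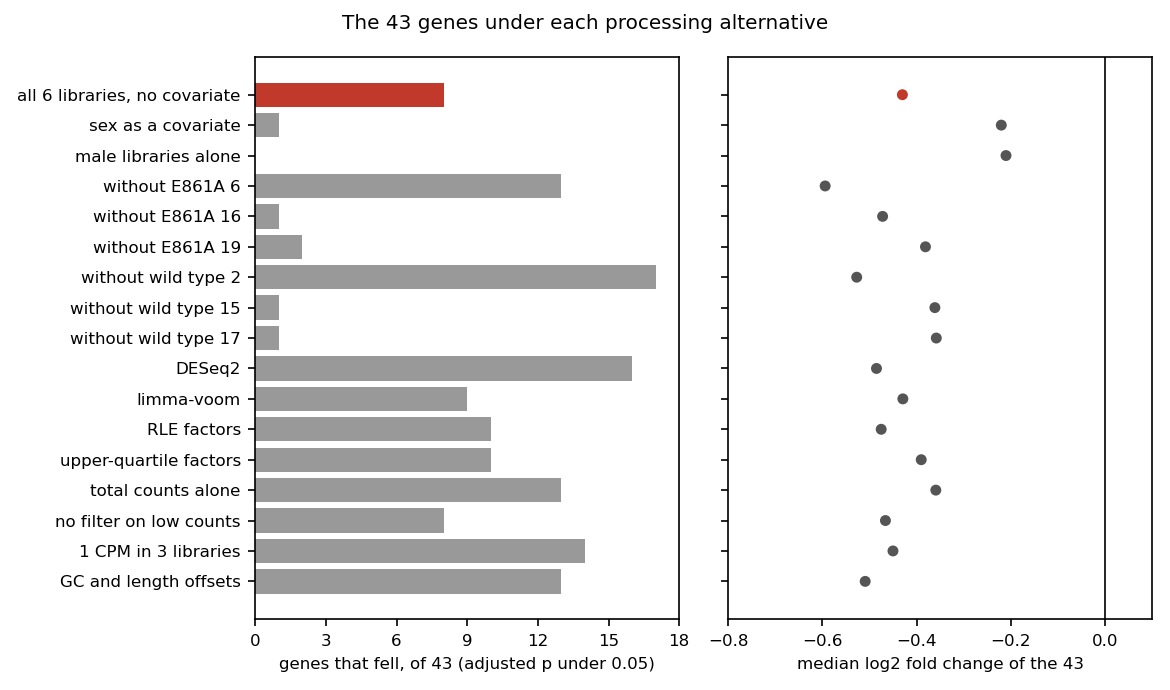
Number of the 43 genes that fell at an adjusted p under 0.05 (left) and their median log2 fold change (right) for the fit without a covariate (red) and each of 16 alternatives. The count runs from 0 to 17, while the median stays between -0.59 and -0.21.

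RNA editing, the activity that the mutation removes, was measured at 6 sites inside 2 members, all intronic, 1 in Gins1 and 5 in Rpa2. Of these, 4 sites of Rpa2 had at least 10 reads in each genotype, and 1 of the 4 was lower in E861A when the summed edited and unedited reads were compared by Fisher's exact test (two-sided), against 16.7% of 3883 sites tested in all. At that site, chromosome 4 position 132328443 in NCBIM37, 0 of 17 reads were edited in E861A, which allows a level of up to 17.6%, and 16 of 32 (50%, Wilson 95% interval 33.6 to 66.4%) in wild type (adjusted p = 0.00228). Wild type 2, 15 and 17 gave 2 of 7, 6 of 14 and 8 of 11 edited reads, so each wild-type liver showed editing. At positions 132328435, 132328440 and 132328493 the edited reads were 0 of 19, 0 of 18 and 0 of 21 in E861A, against 8 of 34, 8 of 33 and 5 of 28 in wild type, and none of the 3 passed (adjusted p 0.169 to 0.238). Wild type 2 had 0 of 8, 0 of 8 and 0 of 9 edited reads at these 3, so their edited reads came from wild type 15 and 17. Reads were summed over the livers of a genotype, so intervals, limits and p-values at these sites cover counting error alone, not the spread between livers. With a minimum of 20 reads only 1 of the sites was tested and 0 passed.

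The stretch of the Rpa2 intron around these sites is shown with the 4 edited adenosines in capitals, since ADAR1 acts on paired RNA and an inverted match lies nearby. The bases around the sites match several stretches of the gene in inverted orientation. The nearest lies 376 bases away, with 68.7% identity over 99 aligned bases, and all 4 sites fall inside the match. All 4 also fall inside matches 838 bases away (67.0% over 100 bases) and 3119 bases away (72.7% over 99 bases). A shorter match 2450 bases away (80.5% over 41 bases) holds 1 site. Whether any of these stretches pairs with the sites was not tested.
Rpa2 intron, chr4:132328375-132328553 of NCBIM37, plus strand: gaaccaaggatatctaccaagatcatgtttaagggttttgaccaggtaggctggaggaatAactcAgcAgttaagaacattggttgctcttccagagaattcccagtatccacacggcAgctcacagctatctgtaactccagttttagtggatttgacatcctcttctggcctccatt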

How the data were processed

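RNA of 6 whole fetal livers, 3 of each genotype, was analysed. Gene expression was read from the authors' deposited counts, untransformed whole numbers of reads for each Ensembl gene. Editing was read from the authors' deposited site table, which gives, for every library, the coverage of a site and the edited fraction. The authors' deposited table holds log2 fold changes and p-values per gene in limma's columns, per the file headers, as wild type minus mutant, and the sign was turned here. A table of normalised counts (raw counts times 1 constant per library) was not used. The submitters' processing notes name edgeR, limma, Cufflinks, HTSeq, BWA, Trimmomatic 0.30, TopHat2 2.0.8, SAMtools 0.1.19 and Bowtie2 2.1.0.0 with mm9 and NCBIM37, with no role or order. Strand handling is not given in the sources used here.

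All genes were fitted together with edgeR 4.0.16 in R 4.3.3 (filterByExpr, TMM, robust quasi-likelihood F test, Benjamini-Hochberg over 16511 genes, threshold 0.05). Standard errors (SE) were derived by dividing a log2 fold change by the root of its F value, and CPM are TMM-scaled. DESeq2 1.42.0, limma-voom 3.58.1, other scalings, other filters, sex as a covariate, male libraries alone and leaving out each library were alternatives. Offsets for exon GC and length were added after the data were seen. Positions and exon lengths are of GENCODE M1 on NCBIM37, copies were sought with BLAST+ 2.17.0, and promoters are RefSeq's. Edited reads were tested with Fisher's exact test (SciPy 1.17.1, Python 3.11.15) where both genotypes had 10 or more reads. The procedures were tested on simulated data. The 43 members and the lists were chosen with earlier results of these data known. Given per library were, in each role, the 2 members of smallest p and the 1 of largest p, with every member of smaller roles. In each pathway list the 3 of smallest p and any called against the list's direction were named.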

Additional observations from a re-analysis of the deposited data

How the results depend on the processing

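No paired analysis was possible because no replicate number occurs in both genotypes and no litter is labelled. Each genotype had 3 livers and the wild type 1 male, and depth limits Fen1, Cdkn2b and the editing sites. Of the 43 members, 34 stayed below 0 under all 16 alternatives. The members that fell numbered 8 in the reported fit, 1 with sex as a covariate, 0 among male libraries alone, 16 with DESeq2, 13 with total counts alone, 14 with a filter of 1 CPM in 3 libraries, 13 with GC and length offsets, and 1 to 17 when a library was left out. Their median was -0.43 in the reported fit, -0.22 with sex as a covariate and -0.21 among male libraries alone. Over all genes 703 fell in the reported fit, against 39 with sex as a covariate, 8 among male libraries alone, 1397 with DESeq2, 1160 with the 1 CPM filter, 1058 with the offsets and 95 to 1502 without a library. Of all genes 1283 rose, against 530 with sex, 301 among males and 515 to 1737 without a library. Of the pathway genes 30 fell, against 2 with sex, 0 among males and 6 to 44 without a library, and 4 rose, against 2, 2 and 2 to 4. Editing sites in members called lower went to 0 of 1 with at least 20 reads. The estimates that changed sign, with sex as a covariate and among male libraries alone, were Cdt1 (0.18 and 0.20), Cdc45 (0.085 and 0.095), Gins2 (0.053 and 0.063), Mcm10 (0.20 and 0.21), Pold1 (0.13 and 0.14) and Pold2 (0.025 and 0.035). Orc3 turned to 0.003 among males and with the offsets, Mcm10 to 0.014 without wild type 15 (the lowest value without a library was -0.22) and Rfc3 to -0.10 without E861A 6 (the highest was 0.189). None of these passed in either direction. The male fit and the fit with sex hold 1 wild-type male, which is assumed to vary like the other libraries, and the cause of these shifts was not tested.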
